A study of Homo sapiens with 12 samples.

Results

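The 7SL pseudogenes are genomic copies of 7SL RNA, the RNA of the signal recognition particle. They were examined in the long RNA sequencing of HEK293T cells given siRNA against ERI2 or a control siRNA. Members were chosen by name and selected on raw counts: every gene name made of RN7SL, digits and P that held 30 or more counts summed over the 6 RNA-seq libraries. Of 845 names of that form, among 55765 gene names in all, 155 met this rule, while 208 held 1 to 29 counts and 482 held none. The sum pools both groups, so it did not use the difference between them. Scarce members could still meet it mainly through 1 group: 20 held under 15 counts in control libraries and 2 held under 15 in ERI2 siRNA libraries. The minimum gave RN7SL273P and RN7SL767P a place with 30 counts each and RN7SL200P one with 31. It left out RN7SL377P and RN7SL500P with 29 each and RN7SL349P with 28.

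7SL RNA is a small structured RNA that RNA polymerase III transcribes from internal and upstream promoter elements. With 6 proteins it forms the particle that brings ribosomes making secreted proteins to the endoplasmic reticulum. Reverse transcription of this RNA left many copies across the genome, and Alu elements also descend from it. Most copies lack the upstream element of a true 7SL gene, and many lie inside introns of other genes, so a read at such a copy may come from its own transcript or from the transcript around it. ERI2, the target of the siRNA, belongs to a family of 3′ exonucleases.

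HEK293T cells derive from human embryonic kidney and express the SV40 large T antigen, while the growth text names the parental HEK293. Each group had 3 RNA-seq libraries, control siRNA or ERI2 siRNA, and both groups share 1 protocol: Dharmacon ON-TARGETplus siRNA at 50 nM, a second dose after 48 hours and harvest 72 hours later. That text also lists ERI-1 siRNAs, for which no library is in the samples used here, and all ERI2 siRNA libraries carry 1 treatment label, so effects of the siRNA other than loss of ERI2 cannot be told apart. Nothing in the labels ties replicates to separate cultures, so p-values reflect only how these libraries vary, which may be technical. Cells were measured in bulk, where fewer cells of a kind and less RNA per cell cannot be told apart.

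Library totals ran from 29.1 to 38.3 in units of 1000000 counts. ERI2 mRNA fell from 55.7 ± 2.20 to 34.3 ± 1.67 CPM (counts per 1000000 of a library size scaled by TMM, a trimmed mean of ratios; SD, n = 3; adjusted p = 0.000683, edgeR quasi-likelihood), with counts of 1912, 2155 and 1562 in control against 1091, 1205 and 984 in ERI2 siRNA libraries. Of 6 genes that HEK293 lines express in part, NEFL, NEFM, INA, PAX2, LHX1 and SIX2, all were detected, and NEFL and INA, both neurofilament genes, were called lower (36.5 against 25.8 and 21.2 against 15.2 CPM). Their part in the results was not tested. KRT5, KRT1, COL1A2, CD3E and HBB, markers of keratinocytes, fibroblasts and blood cells, had 0 counts in every library. KRT14, DCN and PTPRC held 2 to 4 counts in all, and COL1A1, LUM and CD14 were tested and did not pass.

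Most 7SL pseudogenes were read at a very low level. The median member held 83 counts over the 6 libraries, and at that number the counting error alone is 26.9% of a library's value. Of the 155 members, 135 averaged under 1 CPM and 59 held 100 or more counts. RN7SL4P held 13768 of the 32111 counts of all members, or 42.9%, followed by RN7SL751P with 1199, RN7SL5P with 963, RN7SL648P with 796 and RN7SL737P with 651. These counts are not divided by gene length. The next members by level were RN7SL381P with 379 counts, RN7SL809P with 331, RN7SL425P with 308, RN7SL535P with 281, RN7SL559P with 248, RN7SL481P with 237 and RN7SL375P with 224. A filter on low counts, which asks for about 10 counts (0.309 CPM) in at least 3 libraries, passed 108 of the 155 members into the test and left 47 out. Of the 108, 45 reached that level in all 6 libraries and 101 reached it in at least 1 library of each group. The other 7 reached it in ERI2 siRNA libraries alone, and no member reached it in control libraries alone.

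The true 7SL genes dwarf their copies. RN7SL1, RN7SL2 and RN7SL3 together took 4.31%, 3.92% and 4.91% of all counts in control libraries 1, 2 and 3, and 3.17%, 3.66% and 3.49% in ERI2 siRNA libraries 1, 2 and 3. Every control library lay above every ERI2 siRNA library in this sum. RN7SL3 fell by 0.58 on the log2 scale with an SE of 0.135 (adjusted p = 0.0196, edgeR quasi-likelihood). Its counts were 75918, 66299 and 65470 in control against 50773, 47512 and 34935 in ERI2 siRNA libraries. That call ended without ERI2 siRNA replicate 2 (adjusted p = 0.0743 in edgeR's test), ERI2 siRNA replicate 3 (0.116) or control replicate 3 (0.0991). RN7SL1 had a log2 fold change of -0.38 (edgeR, adjusted p = 0.131) and RN7SL2 one of -0.43 (adjusted p = 0.112), and neither passed. DESeq2 called both lower, with adjusted p of 0.000978 and 0.00461.

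RN7SL4P and RN7SL5P, the copies with the lowest p-values on the lower side, did not pass the test. RN7SL4P held 2563, 2757 and 2383 counts in control libraries and 1710, 2035 and 2320 in ERI2 siRNA libraries, 76.8 ± 5.47 against 63.7 ± 11.5 CPM (SD, n = 3; log2 fold change -0.27, edgeR adjusted p = 0.126). The groups overlapped, since ERI2 siRNA replicate 3 lay within the control range. For each 1000 counts of the 3 true genes, RN7SL4P held 1.73, 1.84 and 1.61 counts in control libraries and 1.69, 1.70 and 2.28 in ERI2 siRNA libraries, so 5 of the 6 libraries lay close together and ERI2 siRNA replicate 3 stood above them. RN7SL5P held 167, 206 and 183 counts against 155, 138 and 114, 5.56 ± 0.814 against 4.26 ± 0.591 CPM (log2 fold change -0.38, edgeR adjusted p = 0.155). Whether these copies take reads from the true genes was not tested.

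The remaining members together were read more often after ERI2 siRNA. Without RN7SL4P and RN7SL5P, a split chosen after the values were seen, the 153 other members summed to 86.3, 64.5 and 67.1 CPM in control libraries 1, 2 and 3 and to 92.7, 102 and 121 CPM in ERI2 siRNA libraries 1, 2 and 3. The groups did not overlap, with 72.6 ± 11.9 against 105 ± 14.7 CPM (SD, n = 3), a ratio of 1.45. With all 155 members the sums were 164, 145 and 157 against 152, 166 and 202 CPM, a ratio of 1.12, and the groups overlapped. Low-level names were also higher on average, with a ratio of 1.16, but their groups overlapped and their sum fell in replicate 1. The 3552 tested genes under 1 CPM summed to 2080, 1734 and 1807 CPM in control and to 1983, 2189 and 2351 CPM in ERI2 siRNA libraries. Their part in the result was not tested.

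**Figure D1:**
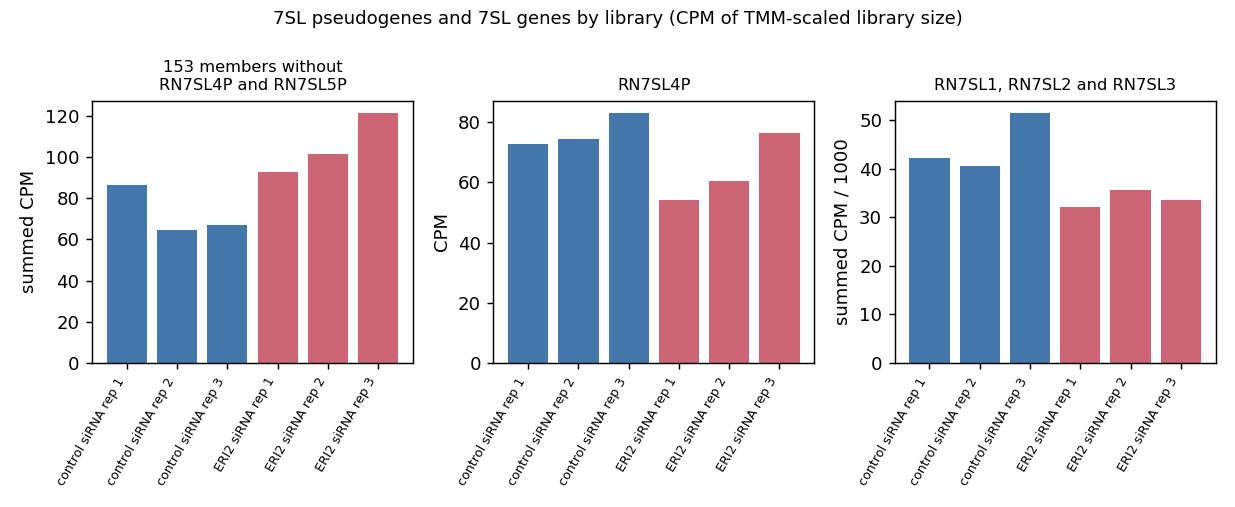
Each bar is 1 library: summed CPM of 153 members (left), CPM of RN7SL4P (middle) and summed CPM divided by 1000 of RN7SL1, RN7SL2 and RN7SL3 (right), with control siRNA in blue and ERI2 siRNA in red. The 153 members run from 64.5 to 86.3 CPM in control and from 92.7 to 121 CPM in ERI2 siRNA libraries, while the true genes are lower in every ERI2 siRNA library.

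Gene by gene, most members lay on the higher side. In a fit without the low-count filter, which holds every member, 126 of the 155 had a log2 fold change above 0 and 29 below, with a median of 0.51 and quartiles of 0.08 and 0.95. Of all 20964 names with 30 or more counts, 50.3% lay above 0, with a median of 0.00, and of the tested genes under 1 CPM 65.0% did, with a median of 0.21. The shift was found at each level. The median was 0.43 for the 39 members of 30 to 49 counts, 0.52 for the 57 of 50 to 99, 0.55 for the 39 of 100 to 199 and 0.46 for the 20 of 200 or more. For all names in the same classes of summed counts it was 0.23, 0.24, 0.19 and -0.03. Control and ERI2 siRNA libraries did not overlap for 40 members, all higher, or 25.8%. Over all names with 30 or more counts, 13.8% did not overlap and were higher, and 14.4% did not overlap and were lower. Among tested genes under 1 CPM these shares were 16.1% higher and 5.32% lower.

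In the test across 18843 genes, 10 of the 108 members tested rose and none fell. This is 9.26% of the members tested, where 4.29% of all tested genes were called higher and 4.25% lower. Among genes under 1 CPM, 2.20% were called higher, and 8 of 88 tested members at that level were. Of those 8, RN7SL312P, RN7SL347P and RN7SL47P reached the filter level in ERI2 siRNA libraries alone. They are also among the 10, so both the 9.26% and the 8 of 88 are given as a description and not as support. On the lower side 2 members, RN7SL4P and RN7SL5P, had an unadjusted p under 0.05, and limma-voom and DESeq2, the latter among 44 members with an adjusted p, called 0 lower. The 10 that rose had log2 fold changes from 0.51 to 2.26, and 8 of them at least doubled.

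The 2 most abundant of these were RN7SL751P and RN7SL648P. RN7SL751P, which lies within ROBO1, a receptor gene of axon guidance, held 200, 196 and 117 counts in control libraries and 223, 246 and 217 in ERI2 siRNA libraries. It rose from 5.02 ± 0.840 to 7.18 ± 0.119 CPM (SD, n = 3; log2 fold change 0.51, SE 0.146; edgeR adjusted p = 0.0455). Control replicate 3 was the lowest library and the ERI2 siRNA libraries lay close together. The call ended without ERI2 siRNA replicate 2 (adjusted p = 0.146 in edgeR's test), ERI2 siRNA replicate 3 (0.135), control replicate 2 (0.0930) or control replicate 3 (0.167). RN7SL648P held 108, 94 and 84 counts against 137, 186 and 187, and rose from 2.85 ± 0.275 to 5.34 ± 0.928 CPM (log2 fold change 0.91, SE 0.175; edgeR adjusted p = 0.00940). It lies within FTX, a long noncoding RNA gene of the X-inactivation centre. FTX itself rose from 27.0 to 42.5 CPM (log2 fold change 0.65; edgeR adjusted p = 0.00692), and without strand information reads of the 2 cannot be told apart.

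The 8 others that rose were each under 1 CPM on average and rest on few counts. RN7SL558P, within the ubiquitin-conjugating enzyme gene UBE2K, held 13, 8 and 6 counts in control libraries against 38, 25 and 31 in ERI2 siRNA libraries. RN7SL801P, within ARL15, held 15, 13 and 11 against 27, 42 and 49. RN7SL246P, within the chromatin remodelling gene ARID2, held 14, 19 and 11 against 30, 27 and 38. In these 3 each ERI2 siRNA library exceeded all control libraries, and in RN7SL558P control replicate 1 stood above the other controls. RN7SL735P, within the protein kinase C gene PRKCA, held 16, 7 and 4 counts against 22, 31 and 36. RN7SL9P held 19, 7 and 6 against 42, 22 and 56. In both, control replicate 1 was the highest control library by more than 2-fold in counts. RN7SL347P held 5, 3 and 6 counts against 26, 17 and 22. RN7SL312P held 7, 2 and 4 against 21, 11 and 25. RN7SL47P, within the autophagy gene ATG5, held 9, 5 and 6 against 21, 20 and 17. These last 3, each at 9 counts or fewer in every control library, are the ones that entered the test through the ERI2 siRNA group. The adjusted p-values of the 10 members ran from 0.00940 to 0.0455 in edgeR's test, and the log2 fold change was 1.87 for RN7SL558P, 1.67 for RN7SL801P, 1.19 for RN7SL246P, 1.99 for RN7SL9P, 2.26 for RN7SL347P, 2.18 for RN7SL312P and 1.59 for RN7SL47P. RN7SL735P rose from 0.261 to 0.935 CPM.

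**Figure D2:**
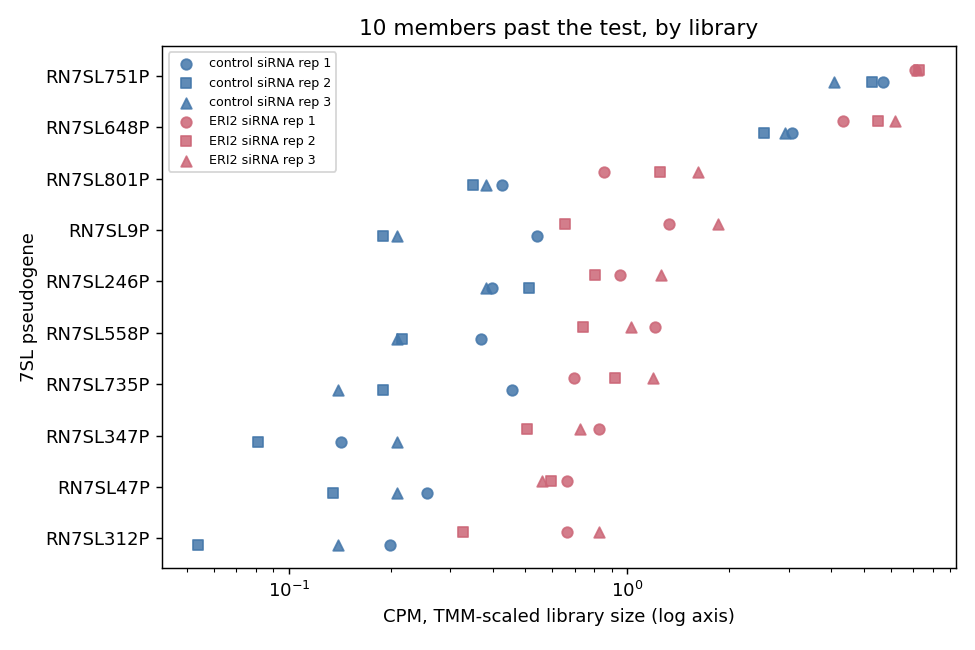
Points give the CPM of each library on a log axis for the 10 members that rose, with control siRNA in blue, ERI2 siRNA in red and the marker shape giving the replicate. All 3 red points lie to the right of all 3 blue points in every row, and 8 of the 10 rows average under 1 CPM.

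The number of members called depended on single libraries. It was 10 with all 6 libraries, 18 without control replicate 1 (9 of the same 10 among them), 3 without control replicate 2 and 2 without control replicate 3. It was 20 without ERI2 siRNA replicate 1, 6 without ERI2 siRNA replicate 2 and 1, RN7SL558P, without ERI2 siRNA replicate 3. RN7SL648P lost its call only in the last of these (adjusted p = 0.0515 in edgeR's test). DESeq2 gave an adjusted p to 44 of the 108 members and called 6, all among the 10, while it gave none to the other 4 (RN7SL312P, RN7SL347P, RN7SL47P and RN7SL735P). In limma-voom all 10 passed. Without the low-count filter, where all 155 members were tested, 17 members were called higher, among them the same 10, and RN7SL4P was called lower. RN7SL4P was also called lower without ERI2 siRNA replicate 3 (adjusted p = 0.0330 in edgeR's test).

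The replicate 1 libraries gave another picture than replicates 2 and 3. In replicates 2 and 3, 137 of the 155 members were higher after ERI2 siRNA, with a median difference of 0.69 in log2(CPM + 0.1), but in replicate 1 only 73 were, with a median of -0.01. Over all names with 30 or more counts the shares were 52.0% in replicates 2 and 3 and 48.9% in replicate 1. Low-level genes shared part of this split. Of the 3552 tested genes under 1 CPM, 70.3% were higher in replicates 2 and 3, with a median of 0.33. In replicate 1, 45.8% of them were, with a median of -0.08. Of the members, 66 were higher in both sets, 71 were higher in replicates 2 and 3 and not in replicate 1, 7 were the reverse and 11 were higher in neither. The 10 members that rose differed by 0.31 to 1.93 in replicate 1 and by 0.63 to 2.12 in replicates 2 and 3. They were called with the replicate 1 libraries included and their groups do not overlap, so the sign in replicate 1 follows from that choice.

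Both replicate 1 libraries contributed to this gap. Control replicate 1 lay above both other control libraries in 86 members, 55.5%, against 37.9% of all names with 30 or more counts. ERI2 siRNA replicate 1 lay below both others of its group in 79 members, 51.0%, against 40.4% of all such names. In log2(CPM + 0.1), the median member differed by 0.34 between control replicate 1 and the other controls. Between ERI2 siRNA replicate 1 and the others of its group it differed by -0.27. For the tested genes under 1 CPM these medians were 0.22 and -0.15. The median member was at 0.398, 0.270 and 0.279 CPM in control libraries 1, 2 and 3 and at 0.444, 0.505 and 0.561 CPM in ERI2 siRNA libraries 1, 2 and 3. ERI2 siRNA replicate 3 was the highest of all libraries in 70 members, 45.2%, against 23.3% of all names with 30 or more counts. Control replicate 2 was the lowest in 59 members, and its share over all names was not taken. The labels name no batch for the replicate numbers.

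With replicates 2 and 3 alone, 37 of the 108 members tested were called higher, 34.3%, and 1, RN7SL5P, lower (adjusted p = 0.0133 in edgeR's test). In that fit 13.9% of all genes tested were called higher and 14.1% lower. The share among genes under 1 CPM was not taken there, so the 34.3% is a description and not support. All 10 members called with 6 libraries were among the 37. They include RN7SL312P, RN7SL347P and RN7SL47P, which reached the filter level with 6 libraries through ERI2 siRNA libraries alone. In replicate 1, which that fit did not use, 21 of the 37 were higher after ERI2 siRNA, 56.8%, with a median of 0.28. Of the 2622 genes called higher in that fit, 55.5% were, with a median of 0.04.

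**Figure D3:**
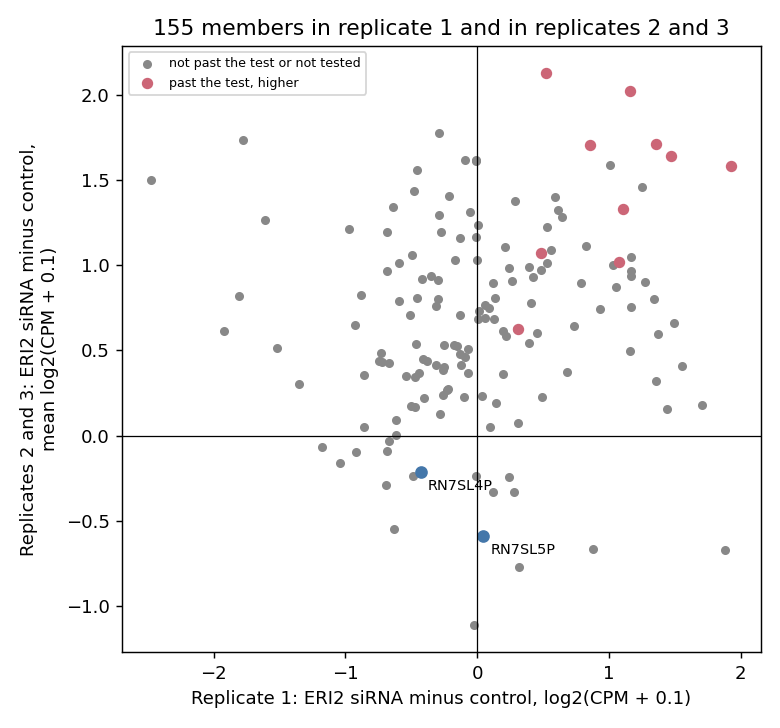
Each point is 1 of 155 members, placed by the difference of ERI2 siRNA minus control in log2(CPM + 0.1) in replicate 1 (horizontal) and averaged over replicates 2 and 3 (vertical). Points centre near -0.01 across and 0.69 up, the 10 members that rose (red), called with all 6 libraries, lie above 0 on both axes, and RN7SL4P and RN7SL5P (blue) lie below 0 on the vertical axis.

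Some members turned sign between the sets. RN7SL388P held 40, 10 and 12 counts in control libraries and 8, 22 and 21 in ERI2 siRNA libraries, a difference of -1.81 in replicate 1 and 0.82 in replicates 2 and 3. RN7SL615P held 20, 8 and 0 counts against 3, 24 and 10, RN7SL739P held 14, 6 and 2 against 2, 12 and 14, and RN7SL284P held 16, 4 and 0 against 0, 12 and 8. In these 4, control replicate 1 was the highest control and ERI2 siRNA replicate 1 the lowest of its group. The opposite turn was found in RN7SL49P, with 5, 19 and 14 counts against 25, 7 and 11, and in RN7SL866P, with 25, 54 and 33 against 44, 24 and 26. RN7SL832P held 36, 43 and 22 counts against 41, 18 and 15. RN7SL5P, described above, also turned, by 0.05 in replicate 1 and -0.59 in replicates 2 and 3. None of these 8 passed the test or, in the case of RN7SL284P, entered it.

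Single libraries held a large part of the counts of a few scarce members. RN7SL200P had 14 of its 31 counts in control replicate 1, or 45.2%, and RN7SL788P had 22 of 49 in ERI2 siRNA replicate 3, or 44.9%. RN7SL273P had 12 of 30 there and RN7SL74P 17 of 43, while RN7SL284P had 16 of 40 in control replicate 1. At the other end, RN7SL128P, RN7SL381P and RN7SL37P had the fitted changes nearest 0 among the members tested. RN7SL128P, within the cell cycle gene E2F3, held 17, 15 and 18 counts against 12, 19 and 17. RN7SL381P, within GSE1, held 71, 67 and 58 against 44, 67 and 72, with ERI2 siRNA replicate 1 the lowest library. RN7SL37P held 17, 15 and 8 against 7, 18 and 12. The interval of a change is wide at these counts: the SE was 0.366 for RN7SL128P, 0.230 for RN7SL381P and 0.433 for RN7SL37P on the log2 scale.

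Among the members with most counts that did not pass, RN7SL737P, within the mitochondrial ribosomal protein gene MRPL42, held 92, 127 and 131 counts against 101, 104 and 96 (log2 fold change -0.16; edgeR adjusted p = 0.659). RN7SL375P, within the formin gene DIAPH3, held 26, 25 and 29 against 34, 53 and 57, and RN7SL559P, within EYA3, held 40, 21 and 30 against 42, 50 and 65. Groups of both did not overlap, but with log2 fold changes of 0.91 and 0.86 they had adjusted p of 0.0689 and 0.0937 in edgeR's test. RN7SL425P, within PRRC2C, held 64, 36 and 23 counts against 47, 74 and 64, and RN7SL809P, within the co-chaperone gene PTGES3, held 70, 33 and 42 against 63, 52 and 71. CASP2, a caspase gene, holds a pair of members: RN7SL535P held 57, 25 and 29 counts against 62, 40 and 68, and RN7SL481P held 38, 44 and 32 against 35, 48 and 40. In RN7SL425P, RN7SL809P and RN7SL535P control replicate 1 lay inside the range of the ERI2 siRNA libraries, and in RN7SL481P the groups were mixed.

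The members differ from the copies with 0 counts in where they lie. A count of 0 is not read as a lack of transcript, since the handling of reads with several alignments is not given. Of the 155, 135 have an entry in the RefSeq gene table of GRCh38, used here only for which genes lie together, since the deposited data name hg19. Of these 135, 124 (91.9%) overlap another protein-coding, long noncoding or transcribed pseudogene entry, and 118 a protein-coding one. Of 387 copies with 0 counts that have an entry, 194 (50.1%) do. The rule selected on counts, so this contrast describes the members and carries no test. Members within another gene had a median log2 fold change of 0.50 (100 of 124 above 0), and the 11 outside any had 0.48 (7 of 11 above 0). Of the 10 members that rose, 7 lie within another gene and 3, RN7SL347P, RN7SL9P and RN7SL312P, have no entry.

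The protein-coding genes around the members centred near 0. For 115 members that overlap exactly 1 tested protein-coding gene, the median log2 fold change was 0.50 for the member and -0.04 for the surrounding gene. Of these members 92 had a higher log2 fold change than the gene around them. The surrounding genes numbered 113, and over the 115 pairs the gene was called higher in 2 and lower in 7. Over all tested genes, 4.29% were called higher and 4.25% lower. Across the pairs the correlation of the changes was -0.05 (Pearson) and -0.04 (Spearman), and that of the levels was 0.26 (Spearman). These pairs share the 6 libraries and are not independent. The deposited data give 1 count per gene name and library, so reads from introns of the surrounding genes were not set apart. Of the 7 surrounding genes of members that rose, FTX, which is not protein-coding and so not among these pairs, was called higher as given above. The other 6, ROBO1 (-0.09), UBE2K (-0.10), ARL15 (-0.20), PRKCA (-0.24), ATG5 (-0.03) and ARID2 (0.08) ranged in edgeR's adjusted p from 0.0571 to 0.854.

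**Figure D4:**
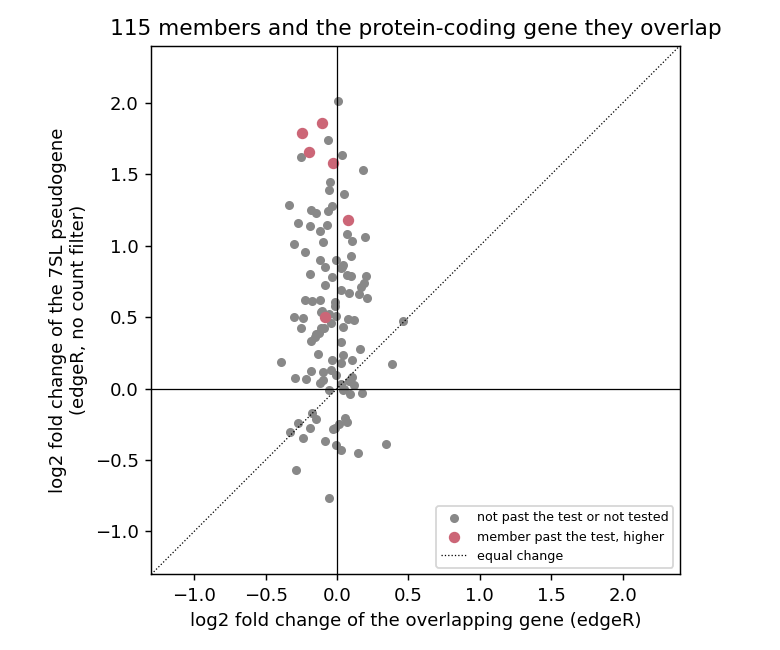
Each point is 1 of 115 members, with the log2 fold change (ERI2 siRNA over control) of the protein-coding gene it overlaps on the horizontal axis and its own on the vertical axis. The surrounding genes centre at -0.04 and the members at 0.50, with most points above the line of equal change.

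Pseudogenes of other small RNAs made by RNA polymerase III lay on the same side. By the same minimum of 30 counts there were 119 copies of U6, the spliceosomal RNA, with a median log2 fold change of 0.41 and 92 above 0. The 36 copies of 7SK, which holds back transcription elongation, had a median of 0.45 and 32 above 0. Of 61 tested U6 copies 1 rose (1.64%), and 0 of 26 tested 7SK copies did. Among all tested genes 4.29% were called higher, and among those under 1 CPM 2.20%, so these counts are not read as a contrast with the 7SL copies. The U6 copy that rose was RNU6-503P, from 9, 8 and 2 counts in control to 27, 17 and 18 in ERI2 siRNA libraries. RNU6-681P (1.53), RNU6-701P (1.71), RN7SKP58 (1.14), RN7SKP234 (0.87) and RN7SKP288 (0.96) did not pass, where edgeR's adjusted p ran from 0.0580 to 0.0974. No difference between the 7SL copies and these families was tested, so the shift is not described as particular to either.

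The replicate sets also differed in the U6 copies, with medians of -0.08 in replicate 1 and 0.47 in replicates 2 and 3, and in the 7SK copies, with 0.15 and 0.54. Of 7 Y RNA names, whose RNAs bind the Ro protein, 6 lay above 0, and of 6 copies of 5S ribosomal RNA 5 did. Of these, 4 Y RNA names and 1 copy of 5S ribosomal RNA were tested, and none passed edgeR's test, where 4.29% of all tested genes were called higher and 4.25% lower. The row named Y_RNA held 1922, 1481 and 1013 counts in control against 1573, 2149 and 2031 in ERI2 siRNA libraries (log2 fold change 0.47; edgeR adjusted p = 0.0517), and RNY5P8 measured 1.09, RNY3P1 -0.60 and RNA5SP268 0.31. Groups overlapped in Y_RNA, RNY5P8 and RNA5SP268, and RNY3P1 was lower in every ERI2 siRNA library.

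**Figure D5:**
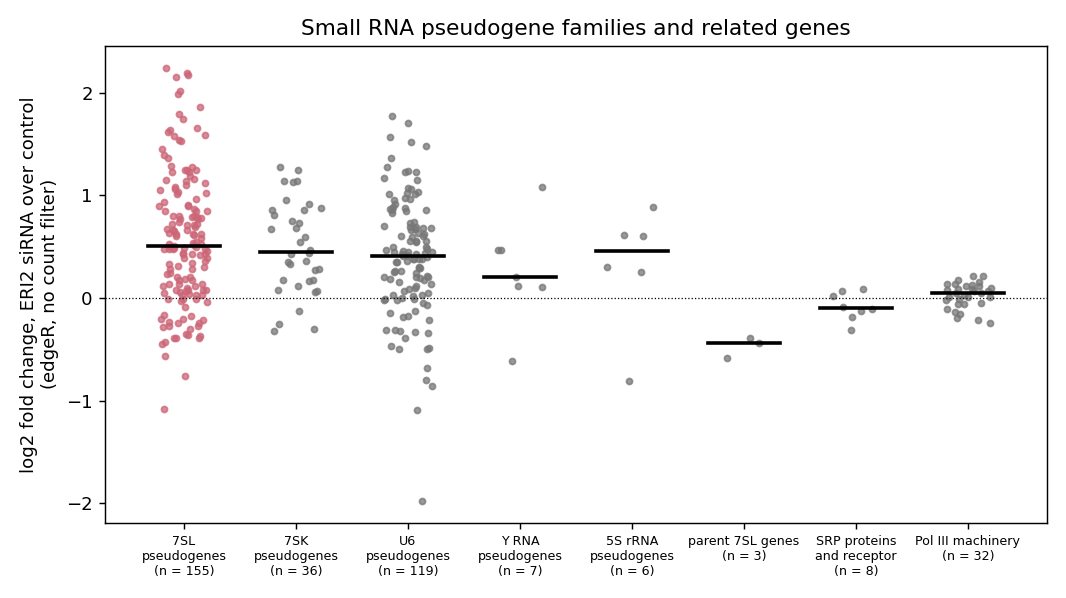
Each point is the log2 fold change (ERI2 siRNA over control, fit without the low-count filter) of 1 gene, with the black line at the median of its list. The medians are 0.51 for 7SL, 0.45 for 7SK and 0.41 for U6 copies, against -0.44 for RN7SL1, RN7SL2 and RN7SL3, -0.10 for the particle's proteins and 0.05 for the polymerase III machinery.

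The proteins that 7SL RNA works with, and the polymerase that makes it, held no call. Of the 6 proteins of the particle and 2 of its receptor, all 8 were tested and none passed edgeR's test. SRP9, which with SRP14 binds the Alu end of 7SL RNA, had 9255, 12156 and 6925 counts in control against 7601, 7845 and 6122 in ERI2 siRNA libraries (log2 fold change -0.30; edgeR adjusted p = 0.0911), and passed only without the count filter or without ERI2 siRNA replicate 1. SRP68 measured -0.18, SRP14 -0.11, SRP54, which binds the signal peptide, -0.10, SRP72 -0.08 and SRP19 0.03. The receptor genes SRPR and SRPRB measured 0.08 and 0.09. Of 32 genes for subunits and initiation factors of RNA polymerase III, its repressor MAF1 and proteins that bind its products, none passed either, with a median of 0.06 among those tested. Over all tested genes, 4.29% were called higher and 4.25% lower, so 0 calls in lists this short is not read as a result about these genes. The lowest p-values were those of CRCP (-0.23), POLR2E (0.22) and POLR3C (0.19), with adjusted p of 0.0921, 0.127 and 0.127 in edgeR's test.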

How the data were processed

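The submitters' processing notes name hg19 as the genome build and list HTSeq 0.6.1p1, TopHat2 2.0.10 and CASAVA 1.8.2 without saying what each did. Annotation release, strand setting and the handling of reads with several alignments or in overlapping genes: not given in the sources used here. Each can move reads between a copy, its parent and the gene around it. The authors deposited raw read counts per gene name, 1 column for each library, and every column matched a sample. The miRNA table was not used here, and no sequence of a 7SL gene or copy was printed.

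In R 4.3.3, edgeR 4.0.16 served for the filter on counts (filterByExpr), TMM scaling and robust quasi-likelihood tests over all 18843 genes kept, at a Benjamini-Hochberg adjusted p under 0.05. Members' values come from that fit. Overlapping genes come from the RefSeq table of GRCh38, used for names and neighbours only. Per-library differences use log2(CPM + 0.1). Alternatives were DESeq2 1.42.0, limma-voom (limma 3.58.1), RLE, total library size, upper quartile, other count filters, the replicate block, leaving out each library, replicates 2 and 3 alone, a threshold of 0.01 and minimums of 10 or 100 counts. Named members are the 12 most abundant, those called, the 3 on each side of the minimum, up to 4 per direction that turned sign, 5 concentrated in 1 library and 3 nearest 0, with up to 3 per other list. Members and lists were chosen with earlier results of these data known. On simulated data of 18843 genes for this comparison, 60.5% of 200 genes changed 1.5-fold and 80% of those changed 2-fold were recovered, with 8 and 9 false calls. The changed genes were drawn from tested genes of any level, and the simulated libraries held no difference between replicate 1 and the others. These values therefore do not measure recovery among the members, of which 135 of 155 averaged under 1 CPM.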

Additional observations from a re-analysis of the deposited data

How the results depend on the processing

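Under each scaling most tested members lay above 0 (88 of 108 in the reported fit, 88 with RLE, 89 with the upper quartile, 90 with total library size). Each of these scalings called 10 members higher. Of the 108, 7 reached the filter level in ERI2 siRNA libraries alone and 0 in control libraries alone. The filter thus leaned to the higher side, and these counts are a description and not support. Other settings moved the number of members called higher. With members called higher at 10 in the reported fit, 6 were called by DESeq2 (which gave no adjusted p to the other 4), 2 with at least 1 CPM in 3 libraries (24 members tested), 17 with no count filter, 37 with replicates 2 and 3 alone, 1 at an adjusted p under 0.01 and from 1 to 20 when 1 library was left out. Members called lower numbered 0, but 1 with no count filter, 1 with replicates 2 and 3 alone and from 0 to 1 when 1 library was left out. A minimum of 100 counts gave 59 members, and one of 10 gave 218.

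Replicate numbers share no stated source. Same-numbered libraries correlated at -0.30, -0.08 and -0.10 in their deviations from the group means. With 3 libraries per group, these values cannot decide whether the numbers pair the samples. With the replicate block 0 members were called (lowest adjusted p 0.0508, 27 on the higher and 1 on the lower side with unadjusted p below 0.05), and 105 genes were higher and 98 lower in all. Over all genes, against 809 higher and 800 lower, no count filter gave 1290 higher, replicates 2 and 3 alone 2622 and 2670, total library size 463 lower, and an adjusted p under 0.01 gave 139 and 145. Leaving out 1 library gave from 176 to 1424 higher and from 195 to 1327 lower. The summed difference over members (24.98 CPM of total counts, ERI2 siRNA minus control) lay between 8.60 and 38.6 when 1 library was left out.

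These log2 fold changes turned sign, and none was past the test. When 1 library was left out, RN7SL737P ran from -0.34 to 0.043, RN7SL381P from -0.20 to 0.15, SRP14 from -0.25 to 0.00051, SRP19 from -0.0059 to 0.086, RN7SL615P from -0.36 to 1.65, RN7SL739P from -0.018 to 1.25, RN7SL388P from -0.57 to 0.65, RN7SL49P from -0.43 to 0.61, RN7SL866P from -0.51 to 0.10, RNA5SP268 from -0.083 to 0.68, RN7SL128P from -0.14 to 0.16 and RN7SL37P from -0.35 to 0.23. With replicates 2 and 3 alone, RN7SL381P gave 0.18, RN7SL388P 0.98, RN7SL49P -0.83, RN7SL37P 0.42 and SRP19 -0.017. RN7SL128P gave -0.0059 with no count filter and -0.0024 with the replicate block. Total library size gave 0.039 for RN7SL381P and 0.029 for RN7SL37P, and the upper quartile 0.0075 for RN7SL381P. The cause was not tested.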

Other observations

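A row named Metazoa_SRP, the family name of the signal recognition particle RNA in the annotation, is outside the naming rule of the members. It held 94, 58 and 49 counts in control libraries 1, 2 and 3 and 64, 93 and 105 in ERI2 siRNA libraries 1, 2 and 3 (log2 fold change 0.47; edgeR adjusted p = 0.260). Control replicate 1 was the highest control and ERI2 siRNA replicate 1 the lowest of its group, and the groups overlapped. RN7SK, the true 7SK gene, averaged 35674 CPM in control and 32232 CPM in ERI2 siRNA libraries (log2 fold change -0.15; edgeR adjusted p = 0.624).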
